A study of Caenorhabditis elegans with 33 samples.

Results

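The F-box B genes of *Caenorhabditis elegans* carry the symbol fbxb followed by a number. 91 such symbols stood among 18811 in the deposited tables. 75 of them had a read count of at least 10 in at least 3 of 33 libraries, and these 75 genes are described here. The libraries were made from whole wild-type N2 worms, labelled as synchronized adults, that ate *Escherichia coli*. 10 groups ate mutants named torY, yccU, ycgJ, yjgU, yghZ, iaaA, ypdF, crl, purH and ycdC, and the control group ate BW25113, a laboratory strain that is the parent of many single-gene mutants. Each of these 11 diets had 3 libraries. The titles give yjgU where the treatment labels give yigU, so it is uncertain which bacterial gene is mutated there. The sources used here do not give the kind of mutation, the day of adulthood, the number of worms per library or the origin of the replicates. The p-values therefore set differences between diets only against the spread among these libraries, and that spread may be technical.

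An F-box protein is the interchangeable part of an SCF ubiquitin ligase, a machine that marks other proteins for destruction by the proteasome. Its F-box binds a SKP1-like adaptor, which worms encode in the skr family. The adaptor sits on the scaffold CUL-1, and the scaffold carries the RING protein RBX-1, which brings in the enzyme loaded with ubiquitin. The rest of the F-box protein holds the target. Nematodes have a very large number of F-box genes, many of them in rapidly evolving families such as fbxa, fbxb and fbxc. The targets of the individual F-box B proteins are not described here.

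Most F-box B genes lay near another of the family, and their transcripts had few exons. By the Ensembl annotation of WBcel235, all 75 were protein-coding, with 43 on chromosome II between positions 587833 and 4827884, 11 on V, 8 on I, 8 on III, 4 on IV and 1 on X. 53 of them stood in 16 clusters in which the next F-box B gene started within 20 kb, and 22 stood alone. The largest cluster held 8 genes (fbxb-43, fbxb-44, fbxb-52, fbxb-51, fbxb-54, fbxb-50, fbxb-49 and fbxb-46; II, 1536231 to 1571132). Their longest coding transcripts had a median of 2 exons (range 2 to 4), against 5 over all 19985 protein-coding genes. Coding length had a median of 948 bases (714 to 1215), against 987 over all protein-coding genes.

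The F-box B genes were weakly represented. In deposited TPM, a level scaled for gene length and library total, their means over 33 libraries ran from 0.136 to 2.10, with a median of 0.504, against a median of 4.77 over the 14696 genes tested. 17 of the 75 had a mean above 1 TPM. The highest mean TPM belonged to fbxb-41 (2.10; II, 1041318 to 1042327), fbxb-67 (2.01; I, 14297287 to 14298325), fbxb-7 (1.95; V, 17377406 to 17379233), fbxb-8 (1.59), fbxb-97 (1.48), fbxb-66 (1.41), fbxb-84 (1.40) and fbxb-45 (1.33). Only fbxb-7 and fbxb-97 had at least 10 counts in all 33 libraries. The libraries held 20.5 M to 22.7 M expected counts (M, 1000000), of which the 75 genes took between 0.000314% and 0.0295%, so each value below rests on few reads. Just inside the selection limit stood fbxb-25 and fbxb-70, where the third highest count over the libraries was 10.0 for each, and fbxb-1, where it was 10.1. Just outside stood fbxb-5, fbxb-6 and fbxb-64, where the third highest count was 9.0 for each. 74 of the 75 genes met the limit without the BW25113 libraries. 7 of the 75 reached 10 counts in any torY library, and 13 reached 10 in no BW25113 library.

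Some of these counts are shared between similar genes. 18 of the 75 had counts that were not whole in at least 1 library. In 5 pairs both genes had such counts in at least 10 libraries, and the counts of both added up to a whole number, within 0.011. These pairs were fbxb-1 with fbxb-2, fbxb-31 with fbxb-33, fbxb-43 with fbxb-44, fbxb-74 with fbxb-75, and fbxb-82 with fbxb-84, where the sum was whole in 26 of 27 libraries and in every such library of the other pairs. The sums were also whole in the few libraries where both counts were not, for fbxb-62 with fbxb-63 (4 libraries), fbxb-15 with fbxb-16 (3), fbxb-81 with fbxb-83 (2) and fbxb-63 with fbxb-64 (2). How the reads fell between the 2 genes of a pair is uncertain. Counts are also uncertain for 10 genes that overlap another gene, among them fbxb-24 (with faah-4) and fbxb-53 (with F36H5.10). The sources used here do not say whether the libraries kept the strand. fbxb-18 and fbxb-19 overlap on the same strand, as do fbxb-16 and fbxb-20, so the strand could not separate the genes of either pair.

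F-box B genes were low in worms on torY and in worms on yccU. Their summed level was 9.19, 13.4 and 3.07 CPM in torY libraries and 5.82, 41.4 and 7.31 CPM in yccU libraries, against 90.9, 76.2 and 48.1 CPM in BW25113 libraries (CPM, counts per 1000000 counts of a library whose size was scaled by TMM). The torY and BW25113 libraries did not overlap, nor did those of yccU and BW25113, although yccU replicate 2 lay close to the lowest BW25113 library. Means were 8.56 ± 5.20 CPM on torY, 18.2 ± 20.1 CPM on yccU and 71.8 ± 21.8 CPM on BW25113 (SD, n = 3 each), so torY stood at 11.9% and yccU at 25.3% of the BW25113 mean. The order of torY and yccU rests on 1 library, since yccU stood at 9.14% without yccU replicate 2. The percentages were 13.9% and 25.8% in deposited TPM, and 10.3% and 23.7% without the 3 genes of highest mean level. The sum over the family was given no test, because the genes were chosen with results of these data known. In whole animals, fewer cells of a type and less RNA per cell cannot be told apart.

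**Figure D1:**
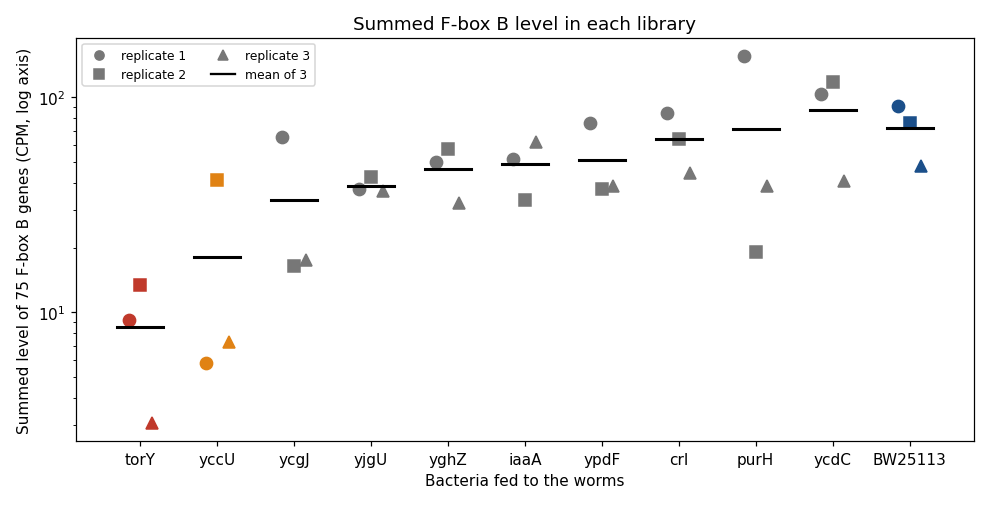
Summed level of the 75 F-box B genes in each of the 33 libraries, in CPM on a log axis, with 1 marker shape per replicate number and a bar at the mean of 3. The torY libraries sit between 3.07 and 13.4 CPM and the BW25113 libraries between 48.1 and 90.9 CPM, and single libraries of yccU, ycgJ and purH stand far above the others of their diet.

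With all libraries included, across the 11 diets, the torY mean was the lowest for 64 of the 75 genes and among the 2 lowest for all 75. The yccU mean was the lowest for 10 and among the 2 lowest for 68. At the other end, ycdC had the highest mean for 47 of the genes, BW25113 for 13, purH for 9, crl for 4 and ypdF for 2. The selection itself favours ycdC and purH here, since fbxb-77, fbxb-87 and fbxb-92 reached 10 counts only in purH replicate 1 and ycdC replicates 1 and 2. Ranks of the diets were not computed over all genes tested, so no share stands beside these counts. The number of F-box B genes with no count at all in a library ranged from 7 to 48 on torY and from 1 to 34 on yccU, against 0 to 1 on BW25113. An F test over all 11 diets in edgeR called 1 F-box B gene, fbxb-111 (Benjamini-Hochberg adjusted p = 0.0404), where 3.16% of all genes tested were called. The next by p were fbxb-31, fbxb-43, fbxb-77, fbxb-62 and fbxb-106, with edgeR adjusted p from 0.0649 to 0.0820. The count was 0 in 18 of the 33 fits that left out 1 library each, among them those without each BW25113 library. It was 21 without yccU replicate 2, where 995 of all 14964 genes tested were called. DESeq2 called 42.

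**Figure D2:**
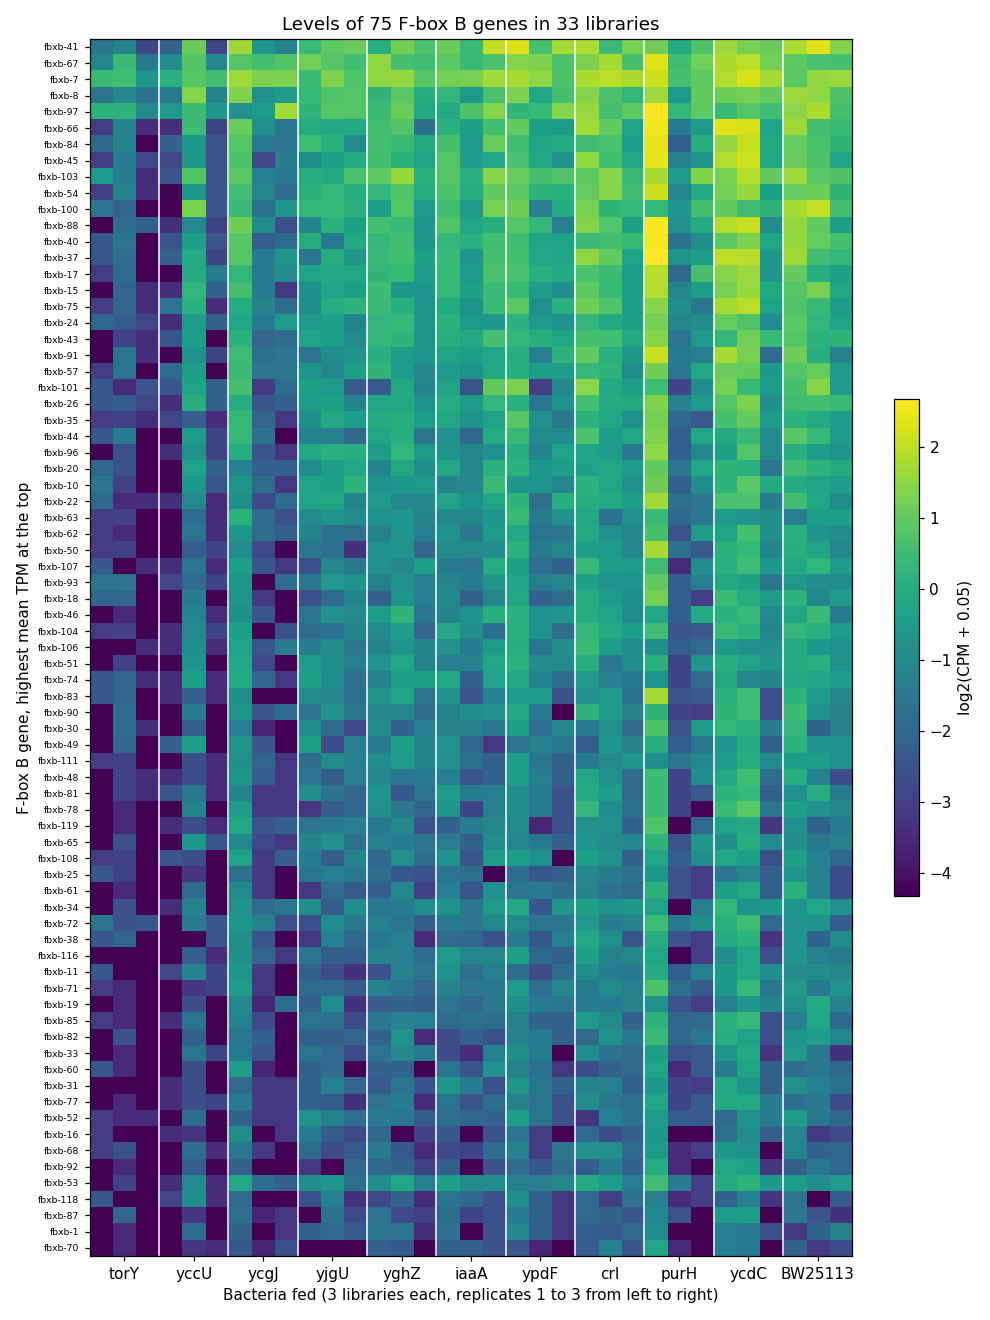
Level of each of the 75 F-box B genes (down the page, highest mean TPM at the top) in each of the 33 libraries (across, 3 per diet), as log2 of CPM plus 0.05. The darkest columns are those of torY and of yccU replicates 1 and 3, and purH replicate 1 and ycdC replicates 1 and 2 hold the brightest columns.

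Worms on torY had less RNA of 48 of the 73 F-box B genes that could be tested, and none rose. Thus 65.8% of those tested fell, where 5.26% of all 14696 genes tested fell and 9.66% rose. The other 25 did not pass the threshold. An unadjusted p under 0.05 was found for 64 of the 73, and for 5371 of all 14696 genes tested. All 73 fitted changes were negative, as were 49.7% of those of all genes. Their median was -3.44 on the log2 scale, against 0.0095 over all genes, and -3.41 with the 2 genes at 0 on torY set to their bound. The genes with a count on torY ranged from -5.27 to -1.01. All 3 torY libraries lay below all 3 BW25113 libraries for 68 of the 75 genes, and 21.7% of all genes tested showed that order. The 2 genes not tested, fbxb-25 and fbxb-70, had been left out by the filter on low counts. A change was called where edgeR's quasi-likelihood test gave an adjusted p (Benjamini-Hochberg, over all genes tested) under 0.05. Single libraries decided how many F-box B genes were called. With BW25113 replicate 2 left out the count was 0, both in the family and among all genes, while 61 of the 75 had an unadjusted p under 0.05. With BW25113 replicate 1 left out the F-box B count was 16, with BW25113 replicate 3 left out 27, with torY replicate 1 left out 13, and with torY replicate 3 left out 1. Among all genes tested, in either direction, the same fits called 745 of 14961, 578 of 14963, 532 of 14963 and 153 of 14934. In none of these 5 fits was the median change of the family above -2.92. The F-box B count was 11 when libraries were scaled by their totals alone, and 823 of all 14696 genes were called.

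**Figure D3:**
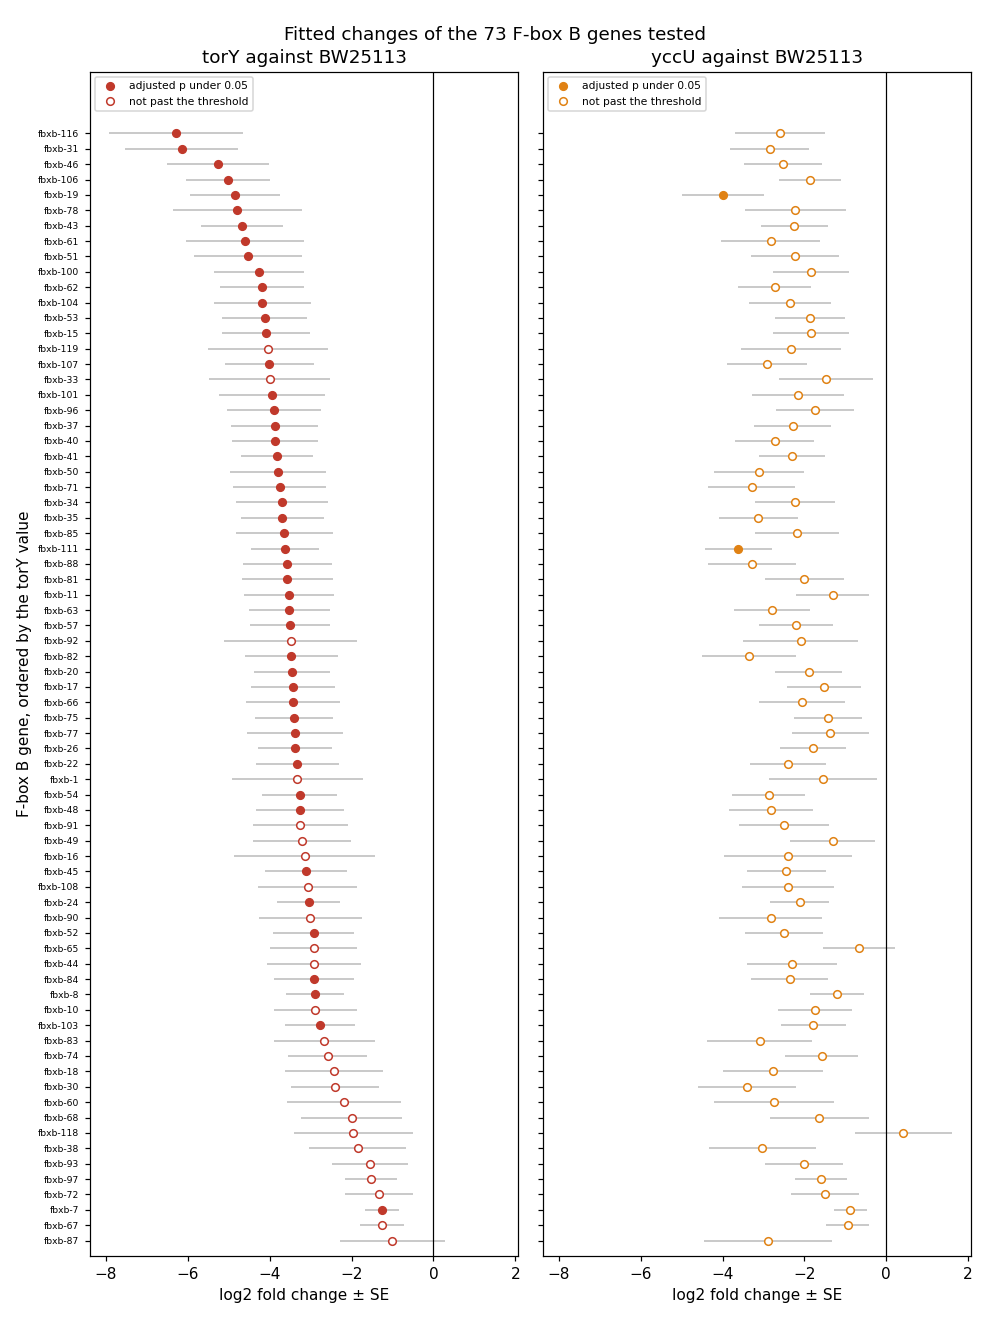
Fitted log2 fold change with its SE for each of the 73 F-box B genes tested, on torY (left) and on yccU (right), each against BW25113, ordered by the torY value. Filled points passed an adjusted p of 0.05 in edgeR, 48 on torY and 2 on yccU, and all torY points lie below 0; the fitted values of fbxb-116 and fbxb-31, at 0 in every torY library, are not bounds.

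The gene with the lowest p was fbxb-106 (II, 2762408 to 2763507). It had 0, 0 and 0.0438 CPM on torY, against 0.933, 0.613 and 0.517 CPM on BW25113. It was thus seen in 1 of 3 torY libraries and in every BW25113 library (log2 fold change -5.03, SE 1.02, edgeR adjusted p = 0.0118). Its neighbour in the same cluster, fbxb-111 (II, 2773926 to 2775004), had 0.0691, 0.0773 and 0 CPM on torY, against 0.700, 0.735 and 0.517 CPM on BW25113. The groups of fbxb-111 were likewise apart (-3.63, SE 0.83, edgeR adjusted p = 0.0132). fbxb-43, at the start of the largest cluster, had 0, 0.0773 and 0.0438 CPM on torY, against 1.69, 1.10 and 1.14 CPM on BW25113 (-4.68, SE 1.01, edgeR adjusted p = 0.0118). fbxb-46, at the end of that cluster, was seen in 1 torY library only, with 0, 0.0387 and 0 CPM on torY, against 0.816, 1.29 and 0.310 CPM on BW25113 (-5.27, SE 1.24, edgeR adjusted p = 0.0142).

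2 of the genes had no count in any torY library. fbxb-31 (II, 3637805 to 3639338) was at 0 in all 3 torY libraries, against 0.525, 0.368 and 0.258 CPM on BW25113, which makes it at least 8.08-fold lower with a floor of 3 counts over the group. fbxb-116 (V, 19233769 to 19235661) was the other gene at 0 in all 3, at least 8.85-fold lower on the same floor, and was singled out after its values were seen. fbxb-19 (II, 1688181 to 1689181) had 0, 0.0387 and 0 CPM on torY, against 0.525, 0.919 and 0.362 CPM on BW25113 (-4.86, SE 1.10, edgeR adjusted p = 0.0130). Its counts cannot be separated with certainty from those of fbxb-18, which it overlaps on the same strand.

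The next genes, which also fell, had mean levels between 0.202 TPM (fbxb-53) and 2.10 TPM (fbxb-41). fbxb-41, the highest of the family in mean TPM, had 0.276, 0.387 and 0.0876 CPM on torY, against 3.44, 5.03 and 2.48 CPM on BW25113 (-3.83, SE 0.88, edgeR adjusted p = 0.0134). fbxb-8 had 0.276, 0.425 and 0.263 CPM on torY, against 3.03, 2.76 and 1.60 CPM on BW25113 (-2.90, SE 0.71, edgeR adjusted p = 0.0164). fbxb-100 had 0.276, 0.193 and 0 CPM on torY, against 3.32, 4.04 and 1.45 CPM on BW25113 (-4.26, SE 1.10, edgeR adjusted p = 0.0196). In each of these 3 genes the highest torY library was below the lowest BW25113 library. The same held for fbxb-62 (-4.20), fbxb-24 (-3.05) and fbxb-53 (-4.13, and -6.84 without torY replicate 2), with edgeR adjusted p from 0.0158 to 0.0185. fbxb-66 (-3.43), fbxb-84 (-2.92) and fbxb-45 (-3.11) fell too, with edgeR adjusted p from 0.0403 to 0.0460, and lost the call with libraries scaled by totals alone. fbxb-77, among the weaker genes with a mean of 0.261 TPM, also fell (-3.38, and -5.32 without torY replicate 2, edgeR adjusted p = 0.0494), a call lost with either other scaling, with no filter on low counts or with DESeq2.

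The smallest changes among the 17 genes above 1 TPM were those of fbxb-7, fbxb-67 and fbxb-97. fbxb-7 had 1.31, 1.35 and 0.570 CPM on torY, against 1.81, 2.88 and 3.05 CPM on BW25113, and fell by 1.26 on the log2 scale (SE 0.41, edgeR adjusted p = 0.0410), a call lost with totals alone or with no filter on low counts. fbxb-97 (1.10, 1.12 and 0.438 CPM on torY, against 2.68, 3.49 and 1.50 CPM on BW25113) changed by -1.53 without passing the threshold (edgeR adjusted p = 0.0894). fbxb-67 (0.414, 1.28 and 0.307 CPM on torY, against 1.86, 1.53 and 1.50 CPM on BW25113) changed by -1.26, and by -2.18 without torY replicate 2, and did not pass with all libraries (edgeR adjusted p = 0.0933). Of the summed F-box B level, fbxb-7 accordingly made up 14.3% ± 4.24 on torY, against 4.03% ± 2.19 on BW25113 (SD, n = 3 each). For fbxb-97 the shares were 11.6% ± 2.99 on torY, against 3.55% ± 0.899 on BW25113. For fbxb-41 they were 2.92% ± 0.0806 on torY, against 5.18% ± 1.41 on BW25113. These shifts were not particular to torY. On yccU the shares were 13.9% ± 8.47 for fbxb-7, 7.4% ± 3.80 for fbxb-97 and 3.02% ± 1.83 for fbxb-41. On ycgJ they were 11.0% ± 5.47, 7.68% ± 9.19 and 3.53% ± 1.27 in the same order. Whether the change of fbxb-7 differs from that of the other F-box B genes was not tested.

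Genes that fell on torY lay in 15 of the 16 clusters and over the range of levels. Every chromosome with an F-box B gene held at least 1 that fell, with 28 of 42 tested on II, 6 of 11 on V, 6 of 8 on III, 4 of 7 on I, 3 of 4 on IV and the single gene on X, fbxb-71. Medians by chromosome lay between -2.90 on I and -3.76 on X. In the largest cluster 6 of 8 fell, with values from -5.27 to -2.92. In the cluster of fbxb-57, fbxb-60, fbxb-62, fbxb-63 and fbxb-61 (V, 19288755 to 19305290) 4 of 5 fell. In the cluster of fbxb-68, fbxb-67 and fbxb-8 (I, 14285934 to 14299780) 1 of 3 fell, with values from -2.90 to -1.26. The cluster with no call was that of fbxb-92, fbxb-90 and fbxb-91 (II, 3746428 to 3750785), with values from -3.49 to -3.02. Of the 24 genes highest in mean TPM 21 passed, of the next 24 genes 15, and of the lowest 25 genes 12, while the median changes of these 3 bands were -3.42, -3.49 and -3.47.

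On yccU the F-box B genes were also low, but 2 of 73 fell (0 with libraries scaled by totals alone) and none rose. 0.122% of all genes tested fell on that diet and 2.5% rose. 72 of the 73 fitted changes were negative (50.5% over all genes). The median of the 73 was -2.24 (range -3.99 to 0.41), against -0.01 over all genes. An unadjusted p under 0.05 was found for 47 of the 73, and for 3952 of all 14696 genes tested. All 3 yccU libraries lay below all 3 BW25113 libraries for 47 of the 75 genes, as for 15.2% of all genes tested. fbxb-111 had 0, 0.111 and 0.0427 CPM on yccU, against 0.700, 0.735 and 0.517 CPM on BW25113 (-3.61, SE 0.82, edgeR adjusted p = 0.0318). fbxb-19 had 0, 0.111 and 0 CPM on yccU, against 0.525, 0.919 and 0.362 CPM on BW25113 (-3.99, SE 1.00, edgeR adjusted p = 0.0355, and -6.81 without yccU replicate 2). Both fell on torY as well, in a comparison with the same control libraries.

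A single yccU library stood apart from the other 2 in this family. yccU replicate 2 had 41.4 CPM in sum and was the highest of its diet for 72 of the 75 genes, whereas replicates 1 and 3 had 5.82 and 7.31 CPM. That library was picked by the sum of the same genes, and no such count was made over all genes. fbxb-41 shows the split, with 0.178, 2.00 and 0.0854 CPM in yccU replicates 1, 2 and 3, against 2.48 to 5.03 CPM on BW25113. Without yccU replicate 2, 45 of the F-box B genes were called and the median change was -3.83, while 2177 of all 14964 genes tested were called in that fit. Without any other single library of the comparison the count was 0, both in the family and among all genes, with 19 to 48 F-box B genes at an unadjusted p under 0.05. DESeq2 called 17 F-box B genes with all libraries, and 1843 of all 14696 genes tested. The larval and molting list was also divided in these libraries, at 1715, 255 and 1617 CPM in yccU replicates 1, 2 and 3.

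No F-box B gene was called between torY and yccU, where 0% of all genes tested were called (DESeq2 called 0 F-box B genes as well). An unadjusted p under 0.05 was found for 5 F-box B genes, and for 62 of all 14696 genes tested. The median difference of torY minus yccU was -1.16 on the log2 scale, and 0.47 without yccU replicate 2. The lowest p belonged to fbxb-106, with 0, 0 and 0.0438 CPM on torY, against 0.0444, 0.500 and 0.0427 CPM on yccU (-3.17, SE 1.11, edgeR adjusted p = 1.0). The next were fbxb-8 (-1.70), fbxb-43 (-2.44), fbxb-100 (-2.42), fbxb-65 (-2.26) and fbxb-15 (-2.25), none of which passed. Their torY and yccU libraries overlapped in each case. These values rested on yccU replicate 2, without which they were -1.21 for fbxb-106, -0.10 for fbxb-8, -0.47 for fbxb-43, 1.13 for fbxb-100, -0.48 for fbxb-65 and -0.26 for fbxb-15. Other single libraries moved fbxb-106 to -5.14 (without torY replicate 3), fbxb-65 to -5.47 and fbxb-15 to -3.84 (both without torY replicate 2).

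In the edgeR fit to all 33 libraries, the other 8 diets had no F-box B gene called against BW25113, and 0% of all genes tested were called on any of them. At an unadjusted p under 0.05 there were 5 F-box B genes on ycgJ, 1 each on iaaA, ycdC, yghZ and yjgU, and 0 on crl, purH and ypdF. Of all 14696 genes tested, 697 had such a p on ycgJ, 164 on iaaA, 682 on ycdC, 986 on yghZ and 954 on yjgU. On crl, purH and ypdF these counts over all genes were 150, 1054 and 194. DESeq2 called 0 F-box B genes on each of the 8. The family's median change was -1.10 on ycgJ, -0.89 on yjgU, -0.61 on yghZ, -0.58 on iaaA, -0.53 on ypdF, -0.12 on crl, 0.06 on purH and 0.39 on ycdC, and those of crl (0.25) and yghZ (0.01) turned positive with libraries scaled by totals alone. These sit beside medians over all genes from -0.08 on yjgU to 0.18 on purH. All 3 libraries lay below all 3 BW25113 libraries for 26 of the 75 genes on yjgU (10.2% of all genes tested), 10 on yghZ (5.82%), 9 on ycgJ (3.48%), 7 on iaaA (2.25%), 7 on ypdF (1.33%), 4 on purH (5.59%), 3 on crl (2.82%) and 0 on ycdC (2.03%). The order of these medians depended on single libraries and on scaling. With 1 library left out the median ran from -0.38 to 0.15 on crl, from -1.46 (without purH replicate 1) to 0.52 on purH and from 0.02 to 0.71 on ycdC, and with libraries scaled by totals alone it was 1.03 on purH and 1.15 on ycdC. With the 6 libraries of yjgU and BW25113 alone, edgeR called 544 of 12253 genes and 0 of 37 F-box B genes, 15 of which had an unadjusted p under 0.05. Without ycgJ replicate 1, 46 of 75 F-box B genes had an unadjusted p under 0.05 on ycgJ, and 0 were called. All 8 sets of values rest on the same 3 BW25113 libraries.

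**Figure D4:**
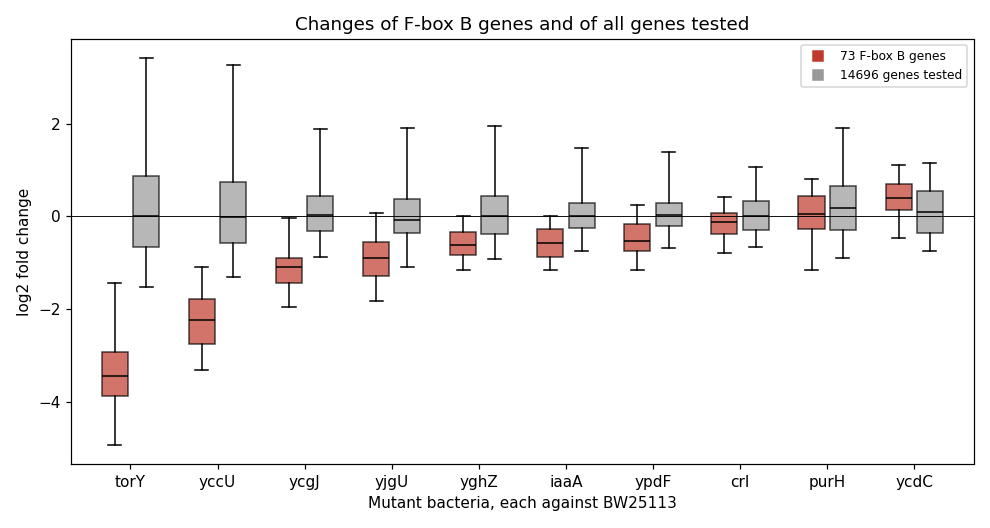
Fitted log2 fold changes of the 73 F-box B genes tested (red) and of all 14696 genes tested (grey) on each mutant against BW25113; boxes span the quartiles with a line at the median, and whiskers reach the 5th and the 95th percentile. The F-box B median is -3.44 on torY and -2.24 on yccU, and between -1.10 and 0.39 on the other diets, while the medians of all genes stay near 0.

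On these 8 diets the gene with the lowest p was in each case short of the threshold. On ycgJ it was fbxb-20, with 0.353, 0.161 and 0.170 CPM, against 1.40, 1.10 and 0.930 CPM on BW25113 (-2.28, SE 0.82, edgeR adjusted p = 0.835). On ycdC it was fbxb-77, with 0.893, 0.918 and 0.336 CPM, against 0.233, 0.306 and 0.103 CPM on BW25113 (1.75, SE 0.80, edgeR adjusted p = 0.744). This gene met the selection limit only through purH replicate 1 and ycdC replicates 1 and 2, so its higher level on ycdC is not independent of the selection. On yjgU it was fbxb-11, with 0.170, 0.105 and 0.0493 CPM, against 0.466, 0.490 and 0.413 CPM on BW25113 (-2.04, SE 0.96, edgeR adjusted p = 0.735). On the remaining 5 diets the genes were fbxb-82 on iaaA (-2.05), fbxb-19 on yghZ (-1.83), fbxb-100 on ypdF (-1.35, and -2.21 without ypdF replicate 1), fbxb-106 on purH (-1.14, and -1.81 without purH replicate 1) and fbxb-7 on crl (0.45, and 0.25 without BW25113 replicate 1). The libraries of the mutant and of BW25113 overlapped for fbxb-100 on ypdF, and did not overlap for any other gene of lowest p on these 8 diets. Each gene was picked for its low p, which favours groups that do not overlap, so this separation adds no support for a difference.

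Libraries of 1 diet differed in F-box B level, widely on some diets and little on others. The library with the highest sum of its diet was the highest for 32 (yjgU) to 74 (ycgJ) of the 75 genes, and the library with the lowest sum was the lowest for 26 (ycgJ) to 70 (ycdC). High counts of this kind are partly built in, since each library was picked by the sum of the same genes. The selection adds to this, as all 75 genes reached 10 counts in purH replicate 1 and in ycdC replicate 2. Such counts were not made over all genes. On purH the sums were 155.5, 19.1 and 38.6 CPM, and replicate 1 was the highest for 73 of the 75 genes. Without that library the median change on purH was -1.46. On ycgJ the sums were 65.4, 16.5 and 17.5 CPM, with replicate 1 the highest for 74 genes, and the median change without it was -2.52. On ycdC the sums were 104, 118.5 and 40.6 CPM, and replicate 3 was the lowest for 70 genes. The ratio of the highest to the lowest sum within a diet ran from 1.16 on yjgU to 8.13 on purH, with 1.89 on BW25113. fbxb-66 illustrates the purH split, at 5.71, 0.326 and 0.643 CPM on purH, against 3.15, 1.47 and 1.29 CPM on BW25113.

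Most genes of the SCF ligase and of related lists did not pass the test. In some of these lists the share that fell was above the 5.26% of all genes tested. On torY, 3 of 9 skr genes fell (33.3%) and none rose. They were skr-17 (15.0 ± 3.47 CPM on torY, against 28.0 ± 2.57 CPM on BW25113, log2 fold change -0.90), skr-12 (1.34 ± 0.655 CPM, against 6.45 ± 2.11 CPM, -2.26) and skr-21 (1.09 ± 0.110 CPM, against 4.69 ± 2.36 CPM, -2.11), with edgeR adjusted p of 0.0256, 0.0377 and 0.0398 (SD, n = 3 each). The scaffold cul-1 (34.2 ± 1.28 CPM on torY, against 62.9 ± 12.3 CPM on BW25113) and rbx-1 (148 ± 40.1 CPM on torY, against 215.6 ± 10.5 CPM on BW25113) did not pass (edgeR adjusted p = 0.132 and 0.214). Of 8 cullin and RING genes 1 fell (12.5%), a cullin other than the SCF scaffold cul-1, and of 14 regulators of cullins 0 passed. Among the other substrate adaptor families on torY, 10 of 34 fbxc genes fell (29.4%) and 2 rose (median -1.65), 3 of 112 fbxa genes fell (2.68%) and 1 rose (median 0.24), and 4 of 54 math and bath genes fell (7.41%) and 1 rose (median -0.01). The F-box B values beside these are 48 of 73 fallen and a median of -3.44, and the difference between families was not tested. On yccU no gene of these lists was called. The lowest p among the SCF genes there were those of skr-17 (17.9 ± 6.94 CPM on yccU, against 28.0 ± 2.57 CPM on BW25113, -0.65, edgeR adjusted p = 0.106), skr-12 (-1.77), skr-21 (-1.33) and skr-3 (0.87). With BW25113 replicate 2 left out, none of the torY calls in these lists was made.

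Several lists of stage and reproduction markers also differed from BW25113 on torY and yccU, some lower and some higher. The embryo list summed to 47.0 to 77.1 CPM on torY and 47.0 to 95.7 CPM on yccU, against 118 to 151 CPM on BW25113, with 4 of 9 tested genes fallen on torY and 1 on yccU. Among its defining genes only med-1 was at 0, in all libraries of yccU and of BW25113. The sperm list summed to 2075 to 3441 CPM on torY and 1840 to 2635 CPM on yccU, against 330.2 to 578 CPM on BW25113 (2 and 1 of 10 rose). The larval and molting list, 17 genes of cuticle collagens and molting regulators, summed to 817 to 2476 CPM on torY and 255 to 1715 CPM on yccU, against 167 to 275 CPM on BW25113, and 11 and 9 of its genes rose, although all worms were labelled as adults. The oocyte and eggshell list was at 9020 to 15700 CPM on torY and 7968 to 19210 CPM on yccU, against 23620 to 30220 CPM on BW25113 (2 of 17 fell on torY and 0 on yccU). The germ line list was at 936 to 1387 CPM on torY and 855 to 1526 CPM on yccU, against 1714 to 2371 CPM on BW25113 (3 of 9 fell on torY and 0 on yccU). The yolk protein genes, which mark adults, were at 26990 to 52170 CPM on torY and 24660 to 57330 CPM on yccU, against 75430 to 100200 CPM on BW25113, and 0 of 6 passed. The intestine list overlapped between diets, at 1497 to 2585 CPM on torY and 1527 to 1702 CPM on yccU, against 1441 to 1872 CPM on BW25113. Within the 11 diets, the library with the lowest F-box B sum was also the lowest in the embryo list in 6 diets and the highest in 0, and the lowest in the oocyte and eggshell list in 6 and the highest in 1. For the sperm list it was the lowest in 0 and the highest in 5. The larval and molting list did not keep 1 direction within diets, since that library was the lowest in it in 5 diets and the highest in 3. The counts of lowest and highest were 5 and 2 for the germ line list, 3 and 2 for the yolk protein genes, and 1 and 4 for the intestine list. With only 3 libraries per diet such matches also arise by coincidence, and none of these counts was tested. Over all libraries, some lists did not follow the F-box B level. purH replicate 1 had the highest F-box B sum of any library, at 155.5 CPM. It was also the lowest in the oocyte and eggshell list (4794 CPM), the yolk protein genes (6469 CPM) and the germ line list (368 CPM). Its embryo list stood at 149 CPM and its sperm list at 43.5 CPM. The part of these markers in the F-box B result was not tested.

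**Figure D5:**
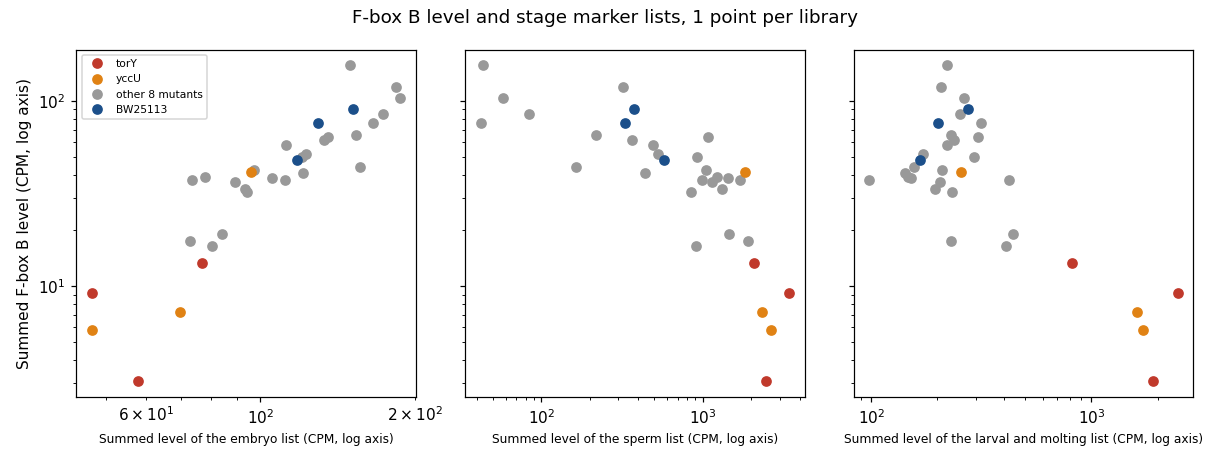
Summed F-box B level (CPM, log axis) against the summed level of the embryo list (left), the sperm list (middle) and the larval and molting list (right; CPM, log axes), with 1 point for each of the 33 libraries. The torY points and 2 of the 3 yccU points lie at low F-box B level, and yccU replicate 2, at 41.4 CPM, has 255 CPM of the larval and molting list where the other yccU libraries have 1617 and 1715.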

How the data were processed

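RNA of whole worms on 11 diets was sequenced in 33 libraries on a DNBSEQ instrument, per the labels. For each library the authors deposited a table with 1 expected count (an estimated read count) and 1 TPM value per gene symbol, per the file headers. The submitters' processing notes name HISAT, StringTie, Bowtie2 and the build WBcel235 without roles, and no counting tool is given in the sources used here. In a single library, 7.78% to 10.0% of the genes had expected counts that were not whole, and the deposited expected counts were rounded before testing. The deposited TPM served only for levels between genes.

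In edgeR 4.0.16 (R 4.3.3), filterByExpr kept 14696 genes, TMM scaled the libraries, and a quasi-likelihood model of 11 diet means was fitted to all 33 libraries. P-values were adjusted by Benjamini-Hochberg over all genes tested. Each SE was obtained from the fold change and its F statistic. The fit was tested on simulated data. Positions are from Ensembl release 115.

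The F-box B genes, the lists and the rule for naming genes were chosen with earlier results of these data known. Named were up to 12 called genes of lowest p per comparison, the 8 of highest mean TPM, the 6 of lowest p over 11 diets and in torY against yccU, the 3 on each side of the selection limit, and the gene of lowest p where none was called. Up to 4 SCF genes were named for torY and yccU.

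Replicate pairs differed beyond sampling noise (chi-square per degree of freedom at least 15.7). Replicate numbers were taken to pair libraries where the deviations of same-numbered libraries had r over 0.1 in every pair. This held for yghZ and BW25113 (r from 0.359 to 0.451), where a replicate block left 0 F-box B calls. The labels name no batch. Alternatives were RLE scaling, library totals alone, other filters, a replicate block, DESeq2 1.42.0, each comparison's 6 libraries alone, leaving out each library, and, chosen after seeing the data, summing the 5 pairs that share reads and leaving out each library from the summed level.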

Additional observations from a re-analysis of the deposited data

How the results depend on the processing

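The count of F-box B genes that fell on torY (48 of 73) was 47 with RLE size factors, 41 without a filter, 48 with the selection limit applied to all genes, 52 with a replicate block, 55 with DESeq2 and 47 of 69 with pairs summed. Over all genes tested, 2193 of 14696 were called on torY, in either direction. That count was 2232 with RLE size factors, 1710 of 18673 without a filter, 2670 with a replicate block and 3404 with DESeq2. The F-box B count moved to 11 with library totals only and to 27 of 30 tested with the 6 libraries alone, where 823 of 14696 and 3834 of 12989 genes were called in all. On yccU the 2 calls became 0 with library totals only, 10 with a replicate block, 17 with DESeq2 and 5 of 30 tested with the 6 libraries alone. Over all genes the 385 calls on yccU became 99, 1169, 1843 and 1641 of 12621 in the same order. The test over 11 diets, with 1 call, gave 0 with library totals only, 0 without a filter, 6 with a replicate block and 42 with DESeq2. Over all genes its 465 calls became 105, 328, 716 and 2345 in the same order. The cause of these moves was not tested. Leaving out 1 library gave 0 to 42 calls on torY, 0 to 45 on yccU and 0 to 21 over 11 diets, and 0 in the other 9 comparisons. Those highest counts came with 2118 of 14937, 2177 of 14964 and 995 of 14964 genes called in all. The summed level ran from 8.54% to 15.8% of the BW25113 mean on torY and from 9.14% to 33.9% on yccU. In torY against yccU, fbxb-100 ran from -3.02 to 1.13 with 1 library left out, and turned positive only without yccU replicate 2. Of the values of named genes, 238 of 254 kept direction and call status under the other alternatives and 16 lost the call. With 1 library left out 147 of 210 kept both, 61 lost the call, 1 gained it and 1 changed sign. Values not called with all libraries count here as kept when they stayed uncalled, and only called values could lose a call.

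Scaling by library totals put the median of all genes against BW25113 between 0.03 and 0.90, with 0.28 on torY and on yccU, and the F-box B medians were then -3.11 on torY, -2.06 on yccU, 0.25 on crl and 0.01 on yghZ, so those of crl and yghZ changed sign. Replicate numbers met the limit for pairing (r over 0.1 in every pair) for yghZ. Every r was positive, but not over 0.1 in every pair, for yccU (0.0443 to 0.277), yjgU (0.022 to 0.304) and torY against yccU (0.0515 to 0.534). The other 7 comparisons had a negative r in at least 1 pair (-0.232 to 0.224 for torY), and 20 of 33 libraries correlated best with their own number. Few counts limit each single value, since only 2 to 7 of the 75 genes had 10 counts or more in a torY library.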

Other observations

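The 16 F-box B symbols below the selection limit, which entered none of the counts above, summed to 0.246 ± 0.175 CPM on torY, 0.570 ± 0.421 CPM on yccU and 1.98 ± 0.659 CPM on BW25113 (SD, n = 3 each). Their 3 torY libraries (0.0438 to 0.348 CPM) and 3 yccU libraries (0.299 to 1.06 CPM) lay below the 3 BW25113 libraries (1.59 to 2.74 CPM). These symbols were chosen by their low counts, and no test was made.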
